A study of Saccharomyces cerevisiae with 36 samples.

Results

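The genes described here are 54 nucleolar ribosome biogenesis factors of the budding yeast Saccharomyces cerevisiae, listed by their systematic names. The deposited table holds 6717 features. By role they are 4 proteins of box C/D and 3 of box H/ACA ribonucleoproteins, 6 of the UtpA, 6 of the UtpB and 3 of the Mpp10 subcomplexes, 8 other small-subunit factors, 16 large-subunit factors, 5 helicases and 3 GTPases. All 54 were found in the table, and all 54 passed the filter on low values, a mean of at least 1 RPKM. Transcripts were measured by RNA sequencing in 6 wild isolates grown in 3 media, with 2 libraries per strain and medium, 36 in all. By their labels UWO.S05.22-7, Y7568 and YPS128 are resistant to hydrolysate, K11 and NCYC361 are sensitive, and NCYC3290 has a medium resistance. Cells grew in rich laboratory medium (YPD), in a synthetic plant hydrolysate with its toxins (SynH) or in that hydrolysate without them (SynH -HTs). In every group, cells had grown for at least 3 generations and were collected in log phase, and each strain and medium was sampled as biological replicates on different days. The NCYC361 libraries in SynH carry the title SynHv and were taken as SynH from their medium label.

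Ribosomes are assembled in the nucleolus, where ribosomal RNA is transcribed, modified under the guidance of small nucleolar RNAs, cut and folded onto ribosomal proteins. The small-subunit processome (the UTP, MPP10, IMP and NOP14 proteins with the U3 ribonucleoprotein) forms on the nascent transcript. Factors such as NOP2, NOP7, RPF1, NOC2, NUG1 and NOG1 build the large subunit. Yeast transcribes these genes together as the ribosome biogenesis regulon, which is high in fast growth and low in stress. Its promoters are known for the PAC element, bound by the repressors Dot6 and Tod6, and the RRPE element, bound by Stb3.

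The promoters of the 54 genes carried both elements more often than promoters at large. In the 250 bases from 300 to 51 before the start codon, read from the RefSeq R64 assembly of the reference strain, the PAC core GATGAG was present on either strand in 50 of 54 promoters (92.6%), against 17.8% of 6001 promoters. The full PAC element GCGATGAG, which contains the core, was present in 31 (57.4%, against 3.87%). The RRPE core AAAATTTT, which reads the same on both strands, was present in 45 (83.3%, against 8.77%). Both cores stood in 43 promoters (79.6%, against 4.13%), and neither in 2, those of UTP22 and UTP4. Matches lay at a median of 114 bases before the start codon for the PAC core and 130 for the RRPE core. In 88 other ribosome biogenesis genes the shares were 86.4% and 72.7%, and in 137 cytosolic ribosomal protein genes 11.7% and 6.57%. These are shares of reference promoters, not of the isolates' own sequences, and a match is not a binding site.

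**Figure D1:**
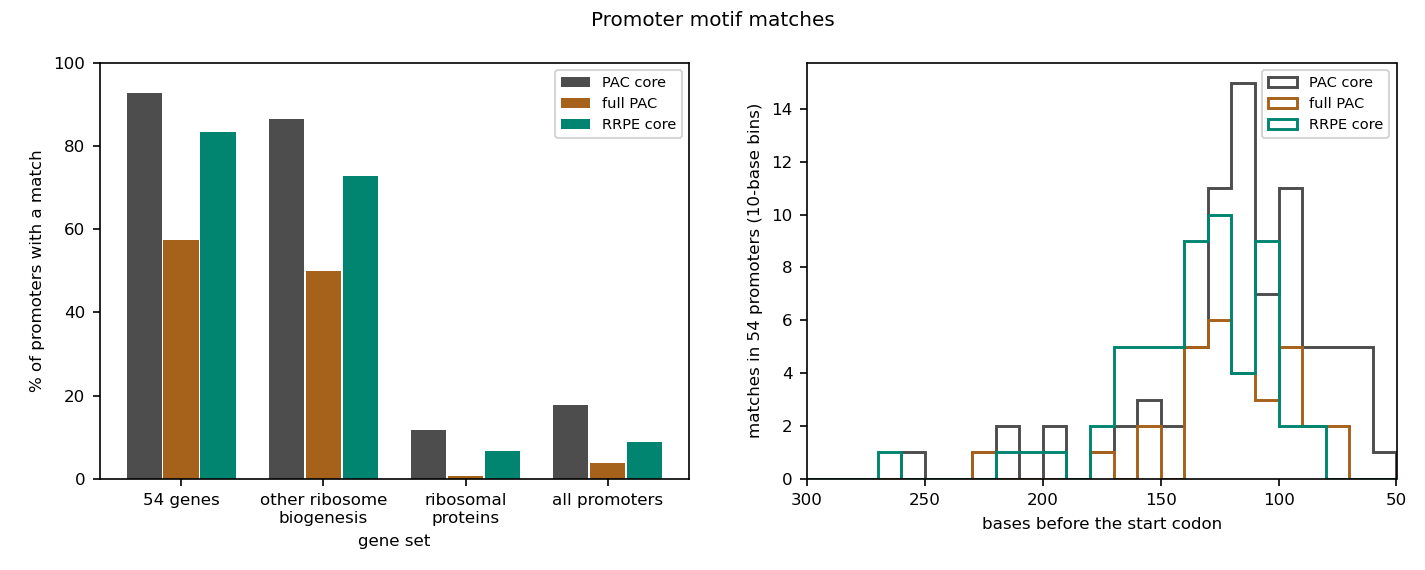
Left, bars give the percentage of promoters with at least 1 match to each element in 4 gene sets. Right, lines give the number of matches in the 54 promoters by distance from the start codon, in bases. The first 2 gene sets stand above the ribosomal protein promoters and all promoters for every element, and the last 2 stay at or below 17.8%.

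5 promoters are shown because the values below turn on their genes: NOP1, the most abundant, RIX1 and SSF1, the largest falls with the toxins, UTP22, the smallest, and EBP2, the largest fall in complete hydrolysate, which was added after its values were seen. They lie at chrIV:427064-427313 (NOP1), chrVIII:493596-493845 (RIX1), chrVIII:229035-229284 (SSF1), chrVII:662058-662307 (UTP22) and chrXI:125459-125708 (EBP2), all on the plus strand of R64, and capitals mark PAC core matches (GATGAG or its complement CTCATC, with the full element where present) and RRPE core matches.
NOP1: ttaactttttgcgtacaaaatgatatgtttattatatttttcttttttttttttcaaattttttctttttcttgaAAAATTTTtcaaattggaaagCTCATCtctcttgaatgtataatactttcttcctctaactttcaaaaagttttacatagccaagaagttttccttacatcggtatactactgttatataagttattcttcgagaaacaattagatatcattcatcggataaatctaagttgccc
RIX1: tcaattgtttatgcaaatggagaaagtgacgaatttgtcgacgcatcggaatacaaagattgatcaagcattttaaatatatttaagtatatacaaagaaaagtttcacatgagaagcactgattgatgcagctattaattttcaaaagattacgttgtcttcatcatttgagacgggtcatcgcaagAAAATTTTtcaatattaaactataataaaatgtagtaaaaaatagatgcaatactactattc
SSF1: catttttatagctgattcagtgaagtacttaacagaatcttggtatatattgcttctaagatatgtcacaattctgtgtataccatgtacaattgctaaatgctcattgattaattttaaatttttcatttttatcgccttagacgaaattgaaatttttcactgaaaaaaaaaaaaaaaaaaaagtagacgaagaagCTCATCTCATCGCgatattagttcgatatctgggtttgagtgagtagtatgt
UTP22: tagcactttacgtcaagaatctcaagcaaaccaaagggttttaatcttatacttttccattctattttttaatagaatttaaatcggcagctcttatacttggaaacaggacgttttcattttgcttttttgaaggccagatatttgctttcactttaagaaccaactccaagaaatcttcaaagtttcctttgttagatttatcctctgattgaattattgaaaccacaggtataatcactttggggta
EBP2: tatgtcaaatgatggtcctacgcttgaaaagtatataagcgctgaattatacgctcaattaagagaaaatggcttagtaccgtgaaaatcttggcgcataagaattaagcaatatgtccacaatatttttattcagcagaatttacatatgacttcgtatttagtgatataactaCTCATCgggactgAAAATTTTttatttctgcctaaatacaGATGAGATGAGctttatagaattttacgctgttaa
NOP1 had 1 match to each core, EBP2 had 3 PAC cores and 1 RRPE core, RIX1 had the RRPE core alone, SSF1 had 2 PAC cores (1 of them within the full element) and no RRPE core, and UTP22 had neither. In RIX1 63 bases of the window lie inside the neighbouring gene UTP9, itself one of the 54, and in EBP2 85 bases lie inside SNU114. Beside these motifs, the SynH minus YPD comparison described below gave a median log2 change of -1.01 for the 43 genes with both cores, -1.20 for the 7 with the PAC core alone, -1.30 and -0.64 in the 2 with the RRPE core alone (RIX1 and UTP15), and -0.75 and -1.22 in the 2 with neither.

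Libraries held 2205293 to 32838987 reads in genes (the next deepest 8047447), and a single one of the 54 genes held 7 to 24688 reads in a library. The deposited unit, log2 RPKM, corrects for the length of a gene and the size of a library, and the authors had added 1 read to each count, so levels can be compared between genes. Because each value is relative to its library's total, less RNA of these genes per cell and more RNA of other genes cannot be told apart. Levels ran from 11.4 RPKM for EBP2 to 337 RPKM for NOP1 as the mean over 36 libraries. The box C/D proteins NOP1 (YDL014W), NOP56 (252 RPKM) and NOP58 (187 RPKM) and the H/ACA pseudouridine synthase CBF5 (183 RPKM) led, followed by the GTPase NOG1 (163 RPKM). The 3 proteins of the Mpp10 subcomplex were low and even, at 27.3 to 33.0 RPKM. Libraries stood apart in 3 respects. The SynH -HTs libraries of replicate 2 differed from those of replicate 1 in all 6 strains, which is taken up with the toxin comparison. In YPD, the 2 NCYC361 libraries had the median of the 54 genes only 1.20 and 0.50 above that of all 5927 tested features. The other 10 had 1.72 to 2.33. Relative to the same median of tested features, on the log2 scale, general stress genes lay at 0.81 and 1.87 (-3.55 to 0.25 in the others). On that scale ribosomal protein genes lay at 4.94 and 4.28 (6.70 to 7.45). In SynH, the 2 K11 libraries had the median of the 54 genes 0.27 and 0.04 above that of tested features. The other 10 had 0.94 to 1.35. Ribosomal protein genes lay 5.92 and 5.67 above the same median of tested features (6.32 to 7.09 in the others). K11 was also lowest in SynH -HTs, at 1.415 and 0.852 for the 54 genes (1.673 to 2.295 in the others). Ribosomal protein genes there lay at 5.975 and 6.265 (6.791 to 7.426 in the others). In YPD the 54 genes stood lowest in K11 after NCYC361, at 1.888 and 1.717.

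**Figure D2:**
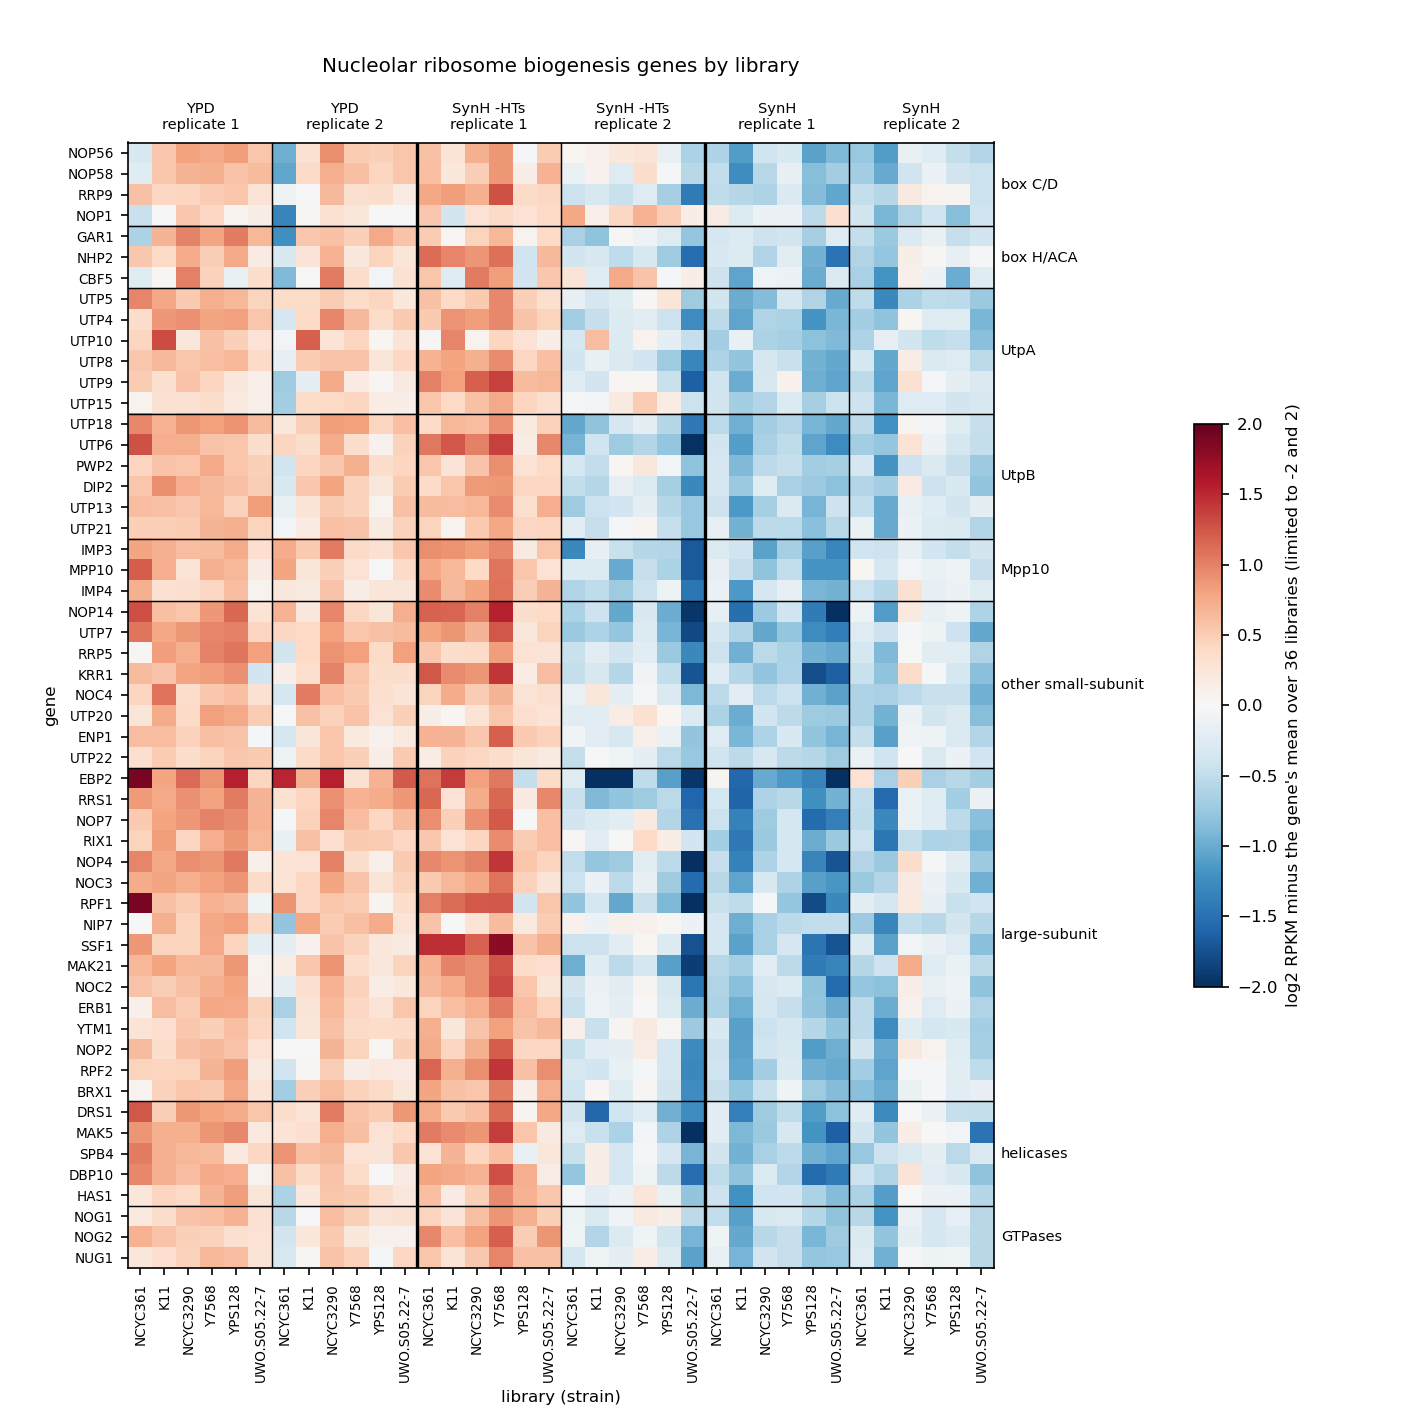
Heat map of the 54 genes (rows, by role) in the 36 libraries (columns, by medium, replicate number and strain), as log2 RPKM minus the gene's own mean. YPD and SynH -HTs replicate 1 are mostly above the mean, SynH is mostly below it, and SynH -HTs replicate 2 lies below replicate 1 on average for every gene but NOP1.

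In complete hydrolysate (SynH minus YPD, averaged over the strains) all 54 genes fell and none rose. The median change was -1.02 on the log2 scale, a 2.03-fold fall, and 30 genes fell by more than 2-fold. Over all tested features 34.2% were called lower and 14.4% higher by limma at an adjusted p of 0.05, and the median change was -0.23. The genes as a group thus lay 0.79 below the median of all features. Their share of the reads in genes was 0.78 to 1.53%, with a median of 1.29%, in the 12 YPD libraries, and 0.53 to 0.85%, with a median of 0.67%, in the 12 SynH libraries. This comparison does not use the SynH -HTs libraries. It shares its SynH libraries with the toxin comparison and its YPD libraries with the base medium comparison, so the 3 are set side by side and not correlated.

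**Figure D3:**
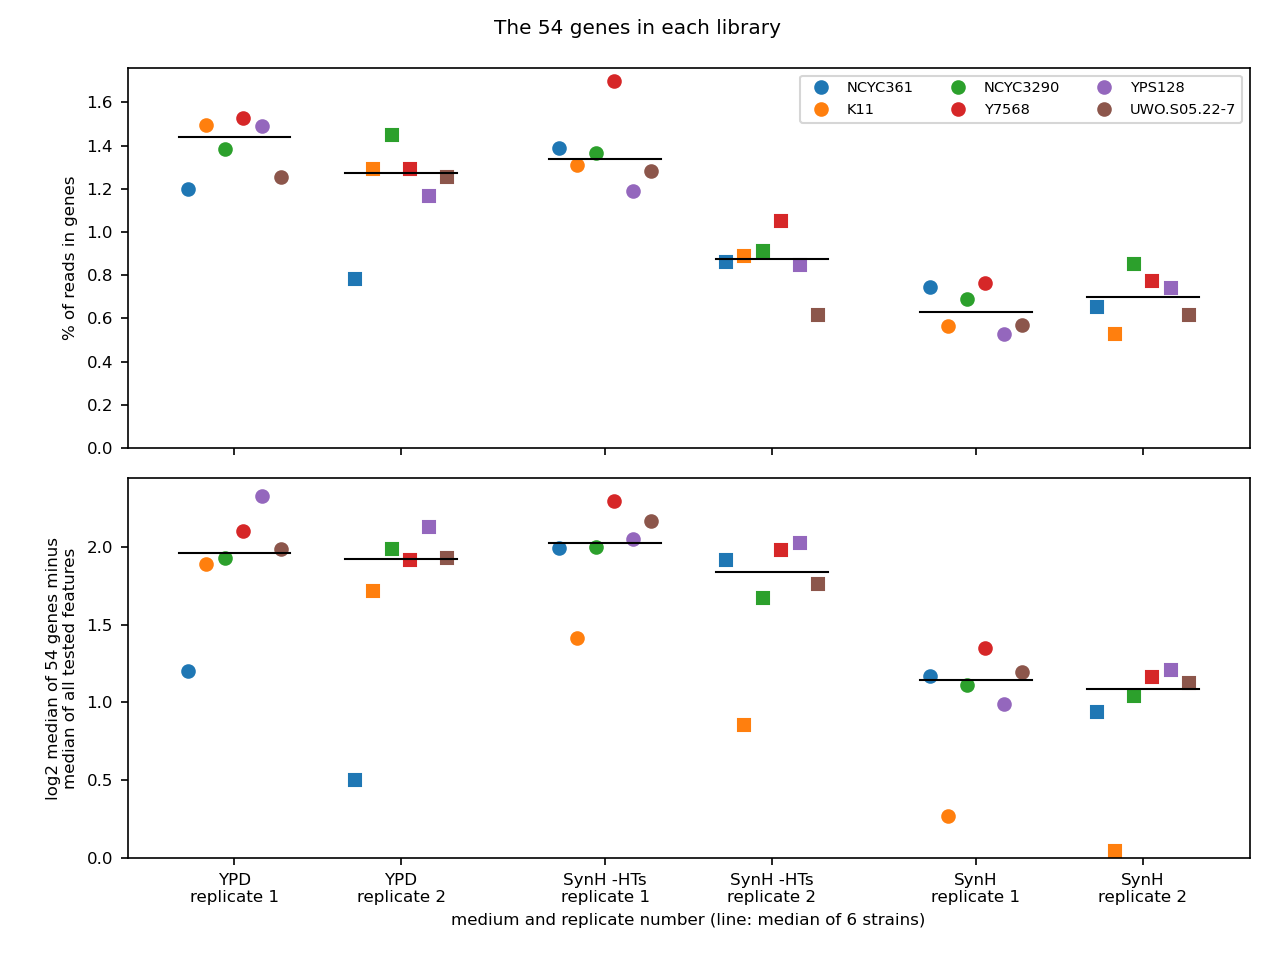
Top, the share of reads in genes held by the 54 genes, in percent. Bottom, their median log2 RPKM minus the median of the 5927 tested features. Each point is a library, coloured by strain, circles for replicate 1 and squares for replicate 2, and lines are medians of 6 strains. SynH libraries hold 0.53 to 0.85%, and in the bottom panel NCYC361 in YPD lies under the other strains in that medium.

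Among the box C/D proteins, which carry out guided ribose methylation, NOP56 (YLR197W) fell by 1.06 ± 0.12 (SE, adjusted p = 1.36e-07) and NOP58 by 0.97 ± 0.13 (adjusted p = 1.58e-06). NOP1 itself, the methyltransferase (fibrillarin in animals), changed least of the 54. Its level was 128 to 466 RPKM in YPD (median 333) and 171 to 401 RPKM in SynH (median 246). Both SynH libraries lay below both YPD libraries in 4 strains, the media overlapped in UWO.S05.22-7, and NCYC361 went the other way, with 237 and 128 RPKM in YPD below its 359 and 249 RPKM in SynH. The mean change of NOP1 was -0.33 ± 0.11 (adjusted p = 0.0166), and after scaling each library to its median it was -0.09 (adjusted p = 0.739). CBF5 (YLR175W), the catalytic subunit of the H/ACA enzymes that make pseudouridine, had 91.8 to 348 RPKM in YPD (median 191) and 73.4 to 180 RPKM in SynH (median 132). It fell by 0.69 ± 0.07 (adjusted p = 5.54e-08), with SynH below YPD in both libraries of 5 strains and NCYC361 as the exception. Its partners GAR1 and NHP2 fell by 0.83 each.

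The UtpA proteins, which bind the nascent ribosomal RNA first, all fell, from -0.64 for UTP15 to -1.23 for UTP5. UTP10 (YJL109C), their most abundant, had 109 to 280 RPKM in YPD (median 145) and 61.4 to 101 RPKM in SynH (median 73.3), so all 12 SynH libraries lay below all 12 YPD libraries. It fell by 1.02 ± 0.09 (adjusted p = 2.55e-09). K11 held the highest UTP10 level in each of the 3 media. In UtpB, a second early module, PWP2 (YCR057C) went from 45.9 to 102 RPKM in YPD (median 86.1) to 26.6 to 49.6 RPKM in SynH (median 43.1). Only the second NCYC361 library in YPD reached into the SynH range. PWP2 fell by 1.03 ± 0.14 (adjusted p = 1.81e-06), and the 6 UtpB genes lay between -0.93 and -1.28. In the Mpp10 module, which joins U3 to the pre-ribosome, MPP10 (YJR002W) had 29.7 to 69.4 RPKM in YPD (median 40.4) and 13.2 to 30.7 RPKM in SynH (median 22.6). Those ranges overlapped narrowly, and within each strain SynH was lower in both libraries. MPP10 fell by 0.94 ± 0.24 (adjusted p = 0.00266), IMP3 by 1.20 and IMP4 by 0.74.

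Of the other small-subunit factors, UTP20 (YBL004W), a very long protein of the processome, gave the smallest adjusted p of all 54, with a fall of 1.08 ± 0.08 (adjusted p = 1.3e-10). RRP5 (YMR229C), needed for both subunits, had 84.7 to 229 RPKM in YPD (median 191) and 54.3 to 109 RPKM in SynH (median 73.5). It fell by 1.18 ± 0.18 (adjusted p = 1.07e-05), and the groups overlapped only through the second NCYC361 library in YPD. UTP22 (YGR090W), another processome protein, went from 71.4 to 114 RPKM in YPD (median 106) to 47.0 to 76.5 RPKM in SynH (median 58.9), a fall of 0.75 ± 0.12 (adjusted p = 2.58e-05).

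The deepest falls were in large-subunit factors. EBP2 (YKL172W), a low-level assembly factor, had 10.6 to 32.0 RPKM in YPD (median 17.4) and 1.92 to 11.9 RPKM in SynH (median 5.42). It fell by 1.80 ± 0.39 (adjusted p = 0.000562), 3.49-fold, and in each strain both SynH libraries lay below both YPD libraries. It had only 7 reads in its lowest library, K11 in SynH -HTs replicate 2. RRS1, which brings the 5S ribosomal RNA particle, fell by 1.46 ± 0.27 (adjusted p = 8.87e-05) and NOP7, of the complex with ERB1 and YTM1, by 1.44 ± 0.21 (adjusted p = 6.9e-06). RIX1 (YHR197W), a late factor, went from 36.8 to 74.3 RPKM in YPD (median 58.5) to 15.07 to 32.2 RPKM in SynH (median 24.98). No SynH library reached the lowest YPD library, and RIX1 fell by 1.30 ± 0.12, 2.46-fold (adjusted p = 4.11e-09). NIP7 (YPL211W), the most abundant of this class, had 60.3 to 184 RPKM in YPD (median 152) and 42.3 to 82.5 RPKM in SynH (median 71.5). Outside NCYC361 its media did not overlap, and it fell by 1.06 ± 0.09 (adjusted p = 2.56e-09). SSF1 (YHR066W), whose near copy SSF2 makes its reads uncertain, had 13.7 to 28.9 RPKM in YPD (median 21.5) and 4.79 to 15.2 RPKM in SynH (median 11.2), a change of -1.03 ± 0.30 (adjusted p = 0.00694).

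The DEAD-box helicases, which remodel RNA in the particle, changed by -0.88 (HAS1) to -1.30 (DRS1). HAS1 (YMR290C), the most abundant, had 61.9 to 171 RPKM in YPD (median 125) and 41.6 to 95.1 RPKM in SynH (median 68.6). The only YPD library inside the SynH range was NCYC361 replicate 2, and HAS1 fell by 0.88 ± 0.15 (adjusted p = 4.04e-05). Among the GTPases of the large subunit, NOG1 (YPL093W) had 105 to 249 RPKM in YPD (median 193) and 67.1 to 140 RPKM in SynH (median 107). It fell by 0.86 ± 0.13 (adjusted p = 7.16e-06). NUG1 fell by 0.76 and NOG2 by 0.81, and the NOG2 value is uncertain because the small nucleolar RNA gene SNR191 overlaps it on the same strand.

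All 12 SynH libraries lay below all 12 YPD libraries for 16 of the 54 genes, against 2.38% of tested features. Both SynH libraries lay below both YPD libraries in each of 6 strains for 34 genes (9.75% of features), in 5 strains for 19 and in 4 for NOP1. Across the 54 genes, which are not independent replicates, the change from YPD to SynH was smaller where the level was higher (Spearman's rho 0.54 between mean log2 RPKM and change). In the toxin comparison described below the sign was the opposite, with rho at -0.254. The level is a mean over libraries that also give the change. The 1 read added weighs most on low genes, where it makes a fall look smaller, and its part in these relations was not tested.

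Within single strains the fall was unequal. Against YPD, genes called lower were 30 of 54 in K11 (9.38% of features there), 17 in UWO.S05.22-7 (10.2%), 12 in YPS128 (5.87%), 11 in NCYC3290 (5.6%), 7 in Y7568 (6.61%) and 4 in NCYC361 (34.8%). The median of the 54 genes lay 1.57 below that of all features in K11, 0.71 to 0.93 below in NCYC3290, Y7568, YPS128 and UWO.S05.22-7, and 0.08 above in NCYC361. The 2 strains at the ends of that order are those whose SynH (K11) or YPD (NCYC361) libraries stood apart, in K11 also those in SynH -HTs. The part of the SynH and YPD libraries in the order was not tested. In NCYC361 NOP1 rose by 0.78 ± 0.27 (adjusted p = 0.027). By limma's F test, the change differed among strains for NOP1 (adjusted p = 0.0215), CBF5 (adjusted p = 0.00907), NIP7 (adjusted p = 0.0065) and GAR1 (adjusted p = 0.0495), against 26.1% of features. Without the strain NCYC361 all 54 genes were called lower on average. With the means over strains as the only samples, 2 per medium, 9 of the 54 were called. The shares of all features called without NCYC361 and with the means over strains are not given here.

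**Figure D4:**
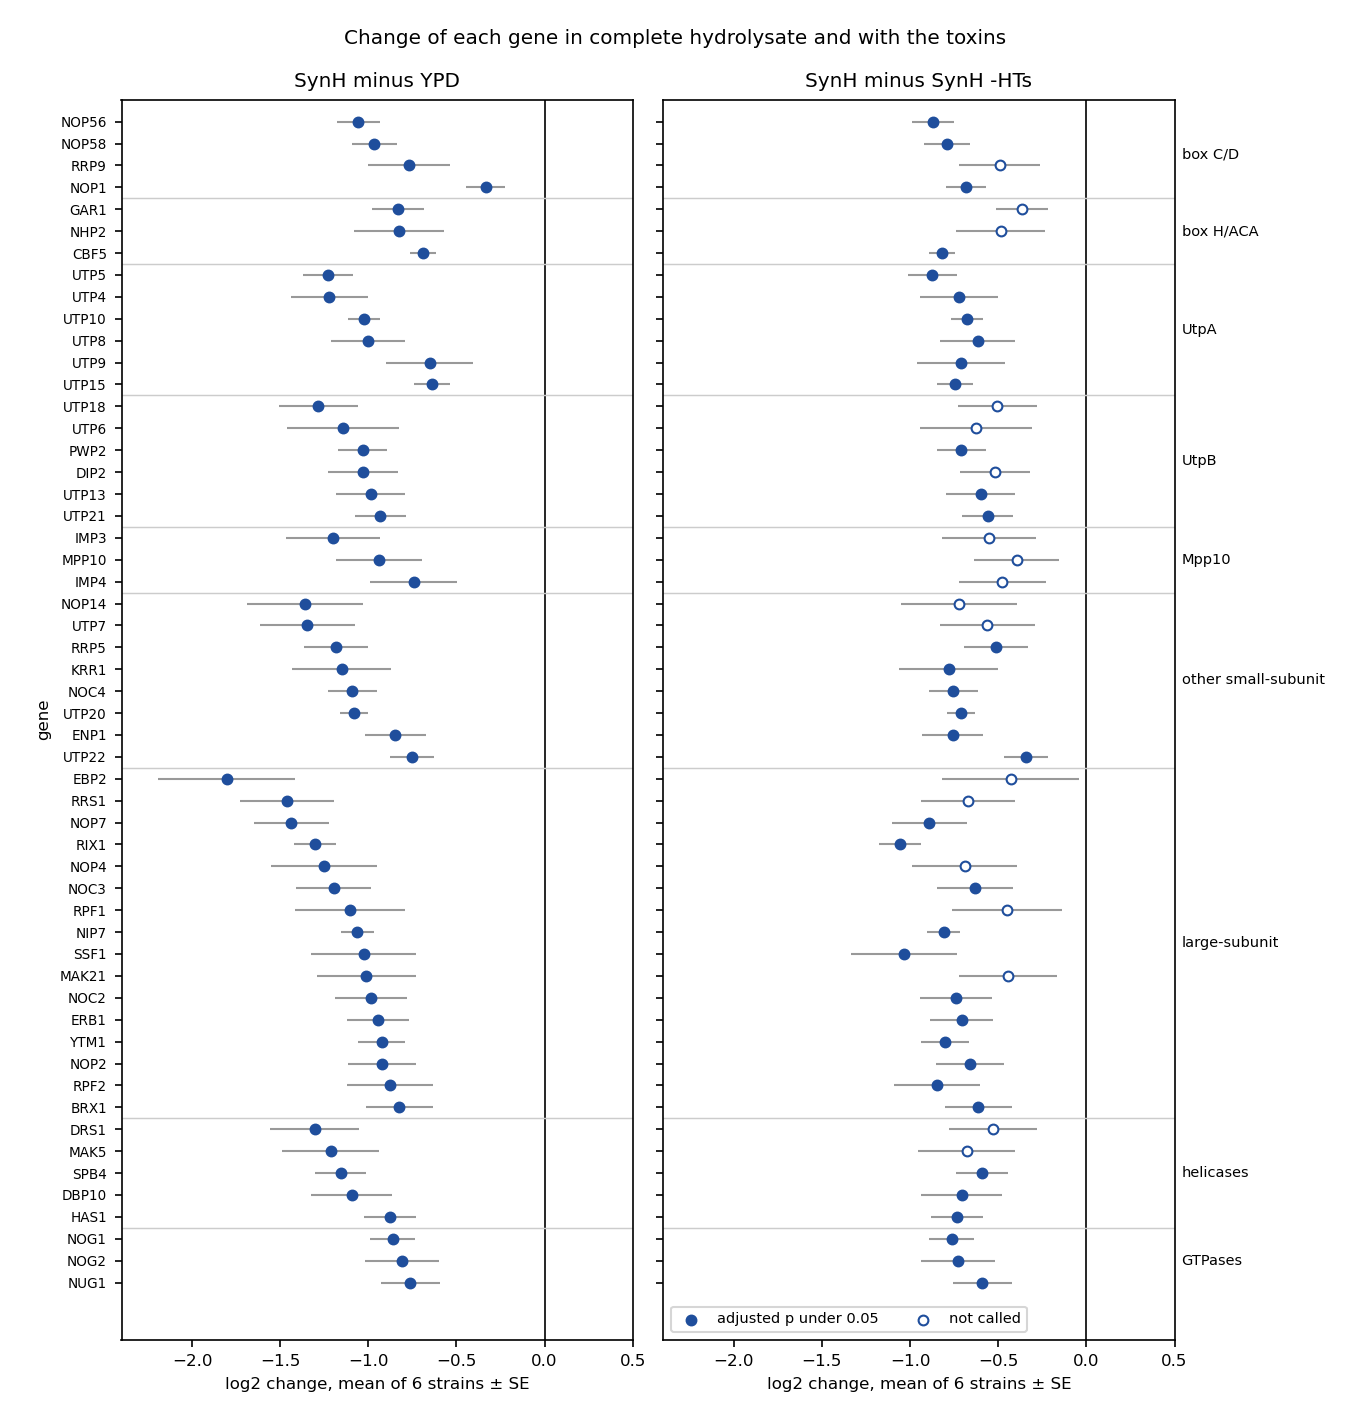
Log2 change of each of the 54 genes with its SE, as the mean of 6 strains, in SynH against YPD (left) and against SynH -HTs (right). Filled points passed an adjusted p of 0.05 in limma. On the left all 54 are filled, from -1.803 (EBP2) to -0.33 (NOP1), and on the right 36 are filled, from -1.06 (RIX1) to -0.34 (UTP22).

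With the toxins (SynH minus SynH -HTs) 36 of the 54 genes fell and none rose, where 10.6% of features were called lower and 19.1% higher. The median change was -0.68, a 1.6-fold fall, against 0.09 for all features, and all 54 estimates were negative. By role, the genes called were 6 of 6 in UtpA, 3 of 3 GTPases, 3 of 4 C/D proteins, 6 of 8 other small-subunit factors, 11 of 16 large-subunit factors, 3 of 5 helicases, 3 of 6 in UtpB, 1 of 3 H/ACA proteins and 0 of 3 in the Mpp10 module, where MPP10 had -0.40 ± 0.24 (adjusted p = 0.249). Both SynH libraries lay below both SynH -HTs libraries in all 6 strains for 8 genes (1.79% of features): CBF5, NIP7, NOC4, NOG1, RIX1, UTP10, UTP20 and UTP5.

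How far the toxin comparison reached depended on the replicate number of the SynH -HTs libraries. Within that medium, replicate 2 lay below replicate 1 for 52 of the 54 genes (called lower, with the strain as the unit) and above it for 0, with a median difference of -1.15 against -0.54 over all features. Of all features 59.8% were called lower and 7.69% higher between the same libraries. In SynH 20 of the 54 were higher in replicate 2 (36.5% of features) and 1, NOP1, lower (1.86%). In YPD 0 of the 54 were called, and 0.0169% of features were lower. All 54 estimates in YPD were still negative, with a median of -0.24 against 0 over all features. By strain that median ran from -0.68 in NCYC361 to 0.07 in NCYC3290. The lack of calls therefore does not show that the YPD replicates agreed. The share of reads held by the 54 genes in SynH -HTs was 1.19 to 1.70% in replicate 1 and 0.62 to 1.05% in replicate 2, with no overlap. The labels do not give the days, and whether the day of collection moved these values was not tested.

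RIX1 fell most with the toxins. In SynH -HTs its values as replicates 1 and 2 were 59.7 and 41.7 RPKM in NCYC361, 50.01 and 35.06 in K11, 55.1 and 40.5 in NCYC3290, 78.6 and 53.8 in Y7568, 58.0 and 45.1 in YPS128, and 61.9 and 31.3 in UWO.S05.22-7. In SynH they were 25.4 and 30.2 RPKM in NCYC361, 15.19 and 15.07 in K11, 24.6 and 29.5 in NCYC3290, 32.2 and 26.6 in Y7568, 20.6 and 26.9 in YPS128, and 24.4 and 21.6 in UWO.S05.22-7. Every strain was lower with toxins in both libraries, whichever SynH -HTs library it is set against. The mean fall was 1.06 ± 0.12 (2.08-fold, adjusted p = 2.34e-07), 1.34 against SynH -HTs replicate 1 alone and 0.77 (adjusted p = 5.44e-06) against replicate 2 alone.

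NOP1 had 248 to 548 RPKM in SynH -HTs, 404.9 RPKM as the median of replicate 1 and 439.99 RPKM as that of replicate 2, so it did not share the drop of the other genes in replicate 2. It fell with the toxins by 0.68 ± 0.11 (adjusted p = 4.22e-05). CBF5 had a median of 247 RPKM in replicate 1 and 193 RPKM in replicate 2 of SynH -HTs, and fell by 0.82 ± 0.07 (adjusted p = 7.31e-09). Both were lower with toxins in all 6 strains. Other small-error falls were NIP7 at -0.81 ± 0.09 (adjusted p = 3.98e-07), UTP20 at -0.71 ± 0.08 (adjusted p = 3.01e-07), UTP10 at -0.68 ± 0.09 (adjusted p = 2.89e-06) and NOP56 at -0.87 ± 0.12 (adjusted p = 4.27e-06). In the remaining roles PWP2 had -0.71 ± 0.14 (adjusted p = 0.000324), HAS1 -0.73 ± 0.15 (adjusted p = 0.000485) and NOG1 -0.76 ± 0.13 (adjusted p = 5.67e-05).

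Other genes rested on replicate 1. SSF1 had 23.5 to 54.7 RPKM in SynH -HTs replicate 1, 4.72 to 16.3 RPKM in replicate 2 and 4.79 to 15.2 RPKM in SynH, so only replicate 1 stood above the toxin libraries. Its mean change of -1.03 ± 0.30 (adjusted p = 0.0105) was -1.89 with replicate 1 alone and -0.18 (adjusted p = 0.423) with replicate 2 alone. EBP2 went further, from 6.19 to 22.6 RPKM in replicate 1 to 1.89 to 7.25 RPKM in replicate 2 of SynH -HTs. With replicate 2 alone its toxin change turned from -0.43 ± 0.39 (adjusted p = 0.472) to 0.60 (adjusted p = 0.0469), the only rise called. RRP5 had a median of 140 RPKM in replicate 1 and 81.5 RPKM in replicate 2 of SynH -HTs, and its fall of 0.51 ± 0.18 (adjusted p = 0.0354) was called on both together. UTP22, the smallest fall at 0.34 ± 0.12 (adjusted p = 0.0387), had a median of 94.8 RPKM in replicate 1 and 61.2 RPKM in replicate 2, against 58.9 RPKM in SynH.

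With SynH -HTs replicate 1 alone all 54 genes were called lower, and with replicate 2 alone 15 were: RIX1, NOP1, CBF5, NIP7, NOP56, UTP20, UTP15, UTP5, NOP58, UTP10, YTM1, NOG1, NOC4, HAS1 and PWP2. The 18 genes that missed the call with both replicates are the same 18 whose sign turned with replicate 2 alone. Without the SynH libraries of replicate 1 the count was also 15 lower and 0 higher. The shares of all features called in those settings are not given here. Relative to all features the direction held. Within replicate 1 the median of the 54 genes lay 0.82 to 1.18 below that of all features in the 6 strains. Within replicate 2 it lay 0.28 to 0.84 below. Without that reference the replicate 2 medians were -0.68 to 0.62, and above 0 in NCYC3290, YPS128 and UWO.S05.22-7. After scaling libraries to their medians, 53 of the 54 were called lower with both replicates and 45 with SynH -HTs replicate 2 alone, the latter a setting chosen after seeing the data. With the means over strains as the only samples, 2 per medium, 1 gene was called. For the scaled and averaged settings, too, the shares of all features are not given here.

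**Figure D5:**
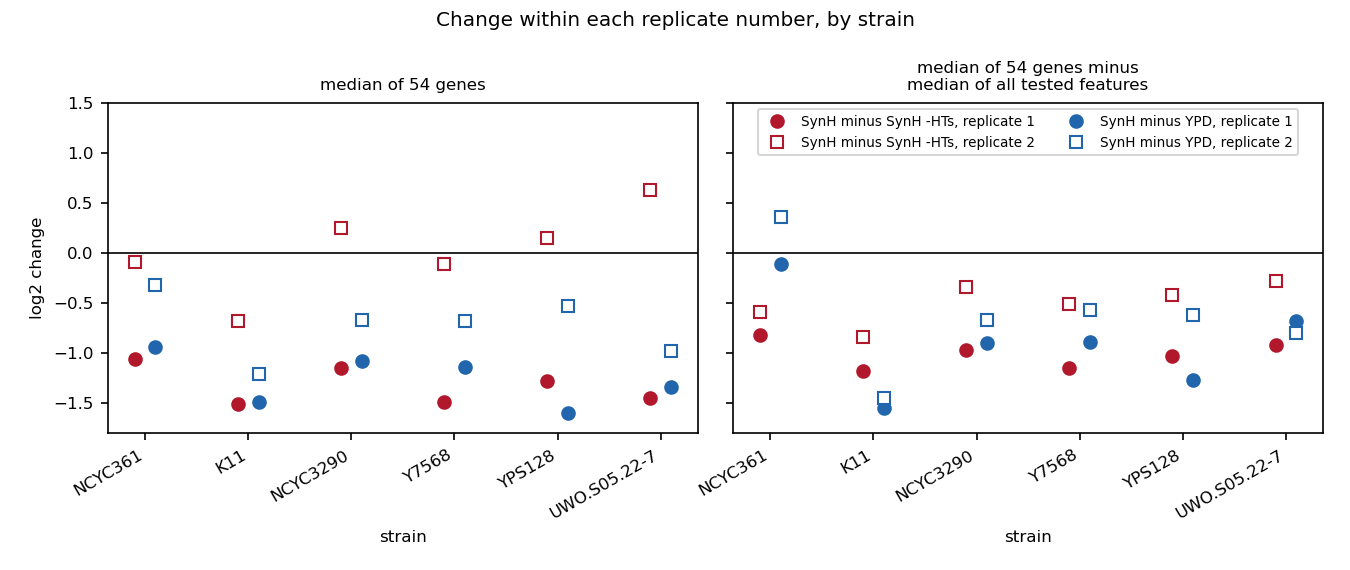
Median log2 change of the 54 genes in each strain within replicate 1 (filled circles) and replicate 2 (open squares), as such (left) and minus the median of all tested features (right). Red is SynH minus SynH -HTs and blue is SynH minus YPD. On the right every red point is below 0, and the blue points of NCYC361 lie at -0.11 and 0.36 while the other strains lie at or below -0.57.

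Per strain, the genes called lower with toxins were 9 in K11 (1.48% of features there), 6 in Y7568 (1.47%), 4 in YPS128 (1.38%), 3 in NCYC361 (1.57%), 1 in NCYC3290 (0.86%) and 1 in UWO.S05.22-7 (0.388%). CBF5 was called in NCYC361, K11, NCYC3290, Y7568 and YPS128, at -0.79 to -0.93, and UTP20 in UWO.S05.22-7 at -0.80 ± 0.20 (adjusted p = 0.0264). RIX1 ranged from -0.81 to -1.47 over the strains. After median scaling the counts were 11 in UWO.S05.22-7 to 29 in K11, and the shares of all features under that scaling are not given here. None of the 54 differed among strains in this response by the F test, against 2.38% of features, and the smallest adjusted p among them was 1. Resistant and sensitive strains, with the strain as the replicate (3 against 2), gave 0 called genes among the 54 in the toxin response (0% of features, smallest adjusted p = 0.371) and in the base medium response (0.0169%, smallest adjusted p = 1). The levels gave 0 in YPD (0%), 0 in SynH -HTs (0.0169%) and 0 in SynH (0%), with adjusted p of at least 0.352. At an unadjusted p under 0.05 limma found 3 of the 54 in the toxin response, where 482 of 5927 features passed, and 0 in the other 4 measures, where 233 (base response), 1038 (YPD), 556 (SynH -HTs) and 811 (SynH) passed.

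In the base medium (SynH -HTs minus YPD), 17 were called lower and 1, NOP1, higher, where 38.4% of features were lower and 6.78% higher. Their median of -0.36 lay 0.05 below that of all features. EBP2 fell most, by 1.37 ± 0.39 (adjusted p = 0.0071), from a median of 17.4 RPKM in YPD to 6.72 RPKM in SynH -HTs. SSF1 changed least, by 0.01 ± 0.30 (adjusted p = 0.988), as the 6 SynH -HTs libraries of replicate 1 lay at 23.5 to 54.7 RPKM, those of replicate 2 at 4.72 to 16.3 RPKM and the YPD libraries at 13.7 to 28.9 RPKM. NOP1 rose by 0.35 ± 0.11 (adjusted p = 0.0155), and by 1.54 ± 0.27 (adjusted p = 7.22e-05) in NCYC361. In that strain 6 of the 54 were called higher (8.64% of features) and 1 lower (44.6%): the 6 were NOP1, CBF5, NOP56, NOP58, GAR1 and NIP7. The response differed among strains for NOP1, CBF5, NOP56, NIP7 and GAR1 (adjusted p from 0.00525 to 0.0432, against 29.6% of features). Without NCYC361, 17 genes were lower and 0 higher. The change turned with the replicate number. Within replicate 1 the median of the 54 genes was -0.289 to 0.313 over the strains, and within replicate 2 it was -1.616 to -0.23. Minus the median of all features it was -0.395 to 0.736 and -0.708 to 0.981. Between the SynH -HTs libraries themselves, 59.8% of all features were called lower in replicate 2. Without the YPD libraries of replicate 1 or of replicate 2, 0 and 4 genes were lower. Leaving out single libraries gave 9 to 36 lower, the most without UWO.S05.22-7 in SynH -HTs replicate 1 and the fewest without replicate 2 of NCYC361, NCYC3290 or Y7568 in that medium. After median scaling 7 genes were lower and 8 higher, and 29 differed among strains. The shares of all features called under these alternatives are not given here.

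Strains also differed in the level of 8 of the 54 genes as a mean over media, against 68.8% of features. CBF5 differed most (adjusted p = 5.14e-09), in the order NCYC3290 at a mean log2 RPKM of 8.04, Y7568 at 7.73, UWO.S05.22-7 at 7.53, NCYC361 at 7.17, YPS128 at 6.96 and K11 at 6.95. UTP10 (adjusted p = 1.99e-05) was at 7.45 in K11 and 6.57 to 6.88 in the others. NOP56, NOP58, UTP20, NOC4, NOG1 and GAR1 made up the rest (adjusted p from 0.00496 to 0.0412), and which neighbouring strains differ was not tested. The count of 8 was 45 after median scaling, and the share of all features that differed under that setting is not given here.

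Of 88 other ribosome biogenesis genes 87 fell in complete hydrolysate and 47 with the toxins, and none rose, with medians of -1.13 and -0.63. Of all features 34.2% and 10.6% were called lower in these comparisons, and 14.4% and 19.1% higher. Of 137 ribosomal protein genes 72 fell in each, at smaller medians of -0.28 and -0.27, with 2 and 0 higher. The first of these medians lay only 0.04 below that of all features, and in NCYC361 100 ribosomal protein genes were called higher in SynH than in YPD and 1 lower. RNA polymerase I, which makes the large ribosomal RNA, had 10 and 6 of 15 genes lower and 0 higher, with its subunits RPA190 at -0.79 ± 0.12 (adjusted p = 5.59e-06) and RPA135 at -0.64 ± 0.08 (adjusted p = 3.88e-07) in complete hydrolysate. RNA polymerase III had 11 and 2 of 12 lower. General stress genes went the other way with the toxins, 24 of 25 higher. In complete hydrolysate 11 of the 25 were higher and 1 lower, and in the base medium 0 were higher and 20 lower. In SynH against YPD, NCYC361 had 5 higher and 16 lower, UWO.S05.22-7 0 and 5, and Y7568 2 and 1. K11, NCYC3290 and YPS128 had 12, 17 and 20 higher and 0 lower. The part of the stress genes in the fall of the 54 genes was not tested.

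Of 10 regulators of the regulon 2 fell and 2 rose with the toxins, where 10.6% of features were lower and 19.1% higher. The share of regulators that rose was thus close to that of all features. TOD6, a PAC repressor, had a toxin change of -1.003 ± 0.24 (adjusted p = 0.00187), while its partner DOT6 rose by 0.46 ± 0.08 (adjusted p = 8.72e-05) and the RRPE repressor STB3 by 0.66 ± 0.21 (adjusted p = 0.0171). SCH9, a growth kinase downstream of TORC1, fell by 0.44 ± 0.08 (adjusted p = 0.000135). The activator SFP1 had -0.10 ± 0.07 (adjusted p = 0.274), IFH1 -0.06 ± 0.32 (adjusted p = 0.909) and FHL1 -0.01 ± 0.26 (adjusted p = 0.992), and RRN3, an initiation factor of polymerase I, had -0.46 ± 0.20 (adjusted p = 0.0866). SSF2, the copy of SSF1, had -0.64 ± 0.29 (adjusted p = 0.103). In complete hydrolysate 6 of the 10 regulators were called lower (34.2% of features) and 0 higher. There DOT6 changed by -0.17 ± 0.08 (adjusted p = 0.0875) and STB3 by 0.155 ± 0.21 (adjusted p = 0.557), so neither rise was called. In the base medium DOT6 fell by 0.63 ± 0.08 (adjusted p = 1.38e-06) and STB3 by 0.50 ± 0.21 (adjusted p = 0.0498). These are transcript levels and not activities.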

How the data were processed

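Transcripts were measured as rRNA-depleted total RNA in stranded libraries, per the labels' protocols. Per the submitters' processing notes, reads were processed with Trimmomatic 0.30, Bowtie2 and HTSeq 0.6.0, while build, annotation and strand setting were not given in the sources used. The deposited values are log2 RPKM, to which the authors added 1 read per count, in 1 table of 6717 features and 36 libraries. Its 6 summary lines that name no gene were left out of all tests.

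A limma-trend model (limma 3.58.1, R 4.3.3) with 1 mean for each of 18 groups of strain and medium was fitted to features whose mean reached 1 RPKM, and p-values were adjusted by Benjamini-Hochberg over all of them at a threshold of 0.05. Changes are means of 6 strains with equal weight. Resistant against sensitive strains and replicate 2 against replicate 1 were tested on 1 value per strain. On simulated data the procedure recovered fewer of the changed genes than the criterion first set for it asked, and that criterion was then replaced by criteria on bias and false calls, so the simulation is no evidence of its power. The p-values measure the spread between biological replicates of the same strain and medium, not between further strains. The model takes libraries as independent, but replicate differences within SynH -HTs correlated at 0.426 to 0.717 between strains. A shift shared by the strains does not average out over them. The SEs of the toxin and base medium comparisons leave it out, so those SEs and their p-values are likely too small. Within SynH the same correlations were -0.082 to 0.633 (median 0.113) and within YPD -0.176 to 0.271 (median 0.052). The SEs in complete hydrolysate leave out any shift shared within those media, so they and their p-values may be too small as well.

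Reads were recovered from the values with coding lengths of the RefSeq R64 assembly at a tolerance of 0.05 reads. Of 6025 matched features 5999 gave whole reads in all libraries, as did all 1944 values of the 54 genes, and these reads were used to give depth only. Promoter windows are of R64, not of the isolates.

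The genes and lists were chosen with earlier results of these data known. Values by medium and strain are given for the most abundant gene of each role and for the largest and smallest responses, and within a role the genes with the smallest adjusted p are named. Values in the base medium are limited to those genes and to genes that differed among strains. The EBP2 promoter, the promoter window, the F test of the complete hydrolysate, the counts of groups without overlap and the settings that combine median scaling with another choice were chosen after seeing the data. Alternatives covered the scaling between libraries, the filter, the pseudocount, the prior variance, the unit of replication, a replicate block and leaving out libraries or strains.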

Additional observations from a re-analysis of the deposited data

Results flagged for a closer look

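The response of 5 of the 54 genes to the base medium differed among the 6 strains by limma's F test, adjusted over all tested features. Of those features 29.6% differed, so the 54 genes did so less often than features at large. The adjusted p was 0.00525 for CBF5, 0.0097 for NIP7, 0.0142 for NOP1, 0.0263 for NOP56 and 0.0432 for GAR1. All 5 were called higher in SynH -HTs than in YPD in NCYC361, whose YPD libraries stand apart in the levels of these genes, of ribosomal protein genes and of stress genes. The change of 4 genes between YPD and complete hydrolysate differed among strains too, against 26.1% of features. The adjusted p was 0.0065 for NIP7, 0.00907 for CBF5, 0.0215 for NOP1 and 0.0495 for GAR1. Both comparisons use the same YPD libraries. The part of the NCYC361 libraries in these differences was not tested.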

How the results depend on the processing

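The fall in complete hydrolysate kept its direction for every gene under every alternative except NOP1, which turned only where median scaling was combined with leaving out YPD replicate 1 (0.02) or SynH replicate 2 (0.322), in a range of -0.583 to 0.322 over all settings that leave out libraries. Its count of genes called lower was 9 with means over strains as the samples, 20 with those means after median scaling, 32 with strains as the unit after median scaling, and 38 to 54 when libraries were left out, with 0 higher. The toxin count was 53 with quantile normalization or median scaling, 1 with means over strains, 10 with means over strains after median scaling, and 15 to 54 lower and 0 to 1 higher when libraries were left out (28 to 50 lower when 1 library was). In the base medium the lower and higher counts were 8 and 3 with quantile normalization, 7 and 8 with median scaling, 6 and 0 with strains as the unit, 1 and 0 with strains as the unit after median scaling, and 0 and 0 with means over strains, scaled or not. Leaving out libraries gave 0 to 51 lower and 0 to 19 higher, leaving out K11, NCYC3290 or YPS128 gave 11, 11 and 8 lower, and leaving out NCYC361 gave 0 higher. The genes whose base response differed among strains were 14 with quantile normalization, 29 with median scaling and 0 to 8 when libraries were left out, and those that differed in level were 35, 45 and 2 to 44. In NCYC361, K11, NCYC3290, Y7568, YPS128 and UWO.S05.22-7 the toxin counts were 13, 32, 9, 13, 10 and 3 with quantile normalization and 24, 29, 15, 26, 22 and 11 with median scaling. The shares of all features called under the alternatives in this section are not given here. The cause was not tested.

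The labels do not say which libraries shared a day, and correlations across genes cannot settle whether replicate numbers pair libraries across media. The correlation of deviations from group means was negative throughout between SynH -HTs and SynH, at -0.553 to -0.009. It was -0.45 to 0.312 between YPD and SynH and -0.208 to 0.381 between YPD and SynH -HTs. Within SynH -HTs it was 0.426 to 0.717 between strains, within SynH -0.082 to 0.633 and within YPD -0.176 to 0.271. With a replicate block the toxin count was 40 lower, the base count 22 lower and 1 higher and the complete count 54 lower, and in single strains the toxin count was 3 in NCYC3290, 7 in YPS128 and 3 in UWO.S05.22-7.

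When libraries were left out, the toxin change turned sign in 18 genes, with ranges of UTP6 -1.552 to 0.305, UTP7 -1.345 to 0.22, UTP18 -1.138 to 0.127, DIP2 -1.096 to 0.059, NOP14 -1.635 to 0.19, MAK21 -1.249 to 0.357, NOP4 -1.526 to 0.144, RPF1 -1.311 to 0.409, RRS1 -1.456 to 0.113, EBP2 -1.456 to 0.598, DRS1 -1.25 to 0.189, MAK5 -1.465 to 0.107, GAR1 -0.756 to 0.027, NHP2 -1.158 to 0.185, RRP9 -1.151 to 0.167, MPP10 -1.067 to 0.275, IMP3 -1.313 to 0.205 and IMP4 -1.18 to 0.227. The base response turned sign in 48 of the 54 genes under some alternative, 37 of them without SynH -HTs replicate 2, 25 with median scaling and 13 with quantile normalization. Among the genes whose base values are reported, the ranges when libraries were left out were CBF5 0.051 to 0.77, NOP56 -0.445 to 0.292, NIP7 -0.43 to 0.289, UTP10 -0.555 to 0.163, PWP2 -0.692 to 0.148, SSF1 -0.849 to 0.891, HAS1 -0.517 to 0.351, NOG1 -0.437 to 0.398, GAR1 -0.86 to 0.046 and MPP10 -1.215 to 0.157. Among the same genes it turned to 0.072 for HAS1 and 0.077 for NOG1 with quantile normalization, and with median scaling, also with strains or means over strains as the unit, to 0.187 for NOP56, 0.122 for NIP7, 0.03 for UTP10, 0.052 for PWP2, 0.232 for HAS1 and 0.276 for NOG1. Without NCYC361 it was -0.042 for CBF5 and -0.03 for SSF1, and for SSF1 it was -0.046 without K11 and -0.054 without Y7568. Depth limits the lowest genes most, with 7 reads for EBP2 in 1 library.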
